A study of Mus musculus with 2 samples.

Results

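The 9 gene ends described here, at Gm8773, BC029722, Tescl, Arl9, Tpsg1, Cacna1h, Dkkl1, Dnajb3 and Akr1b8, lie among the protein-coding gene ends whose CpG methylation differed most between the livers of fasted and control mice. They were chosen from 17378 measured gene ends by that difference, so the difference itself is given as a description and not as a finding. Their members are 755 CpG cytosines, of 3105031 on record with at least 5 reads in either library, that lie within the RefSeq gene or 3 kb on each side of it. The set was labelled as gene ends where whole blocks of CpGs switch. The data bore this out in part, since Dkkl1 held no such block, and Tpsg1 and Cacna1h, which are neighbours and share 28 cytosines, shared a single short one.

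The fasted group was CD-1 mice, an outbred stock, aged 12 weeks and kept without food for 12 hr. The control group was untreated CD-1 mice, also aged 12 weeks, and chow and water were freely given in the colony. There was 1 library per group, and whether it came from a single mouse or from a pool is not in the labels. Levels are the percentage of reads methylated at a cytosine, differences are in percentage points, fasted minus control, and coordinates are in mm10. No spread between animals could be estimated, and every comparison is between these libraries.

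In mammals, methyl groups are placed mostly on cytosines followed by guanine, on both strands, and a maintenance enzyme copies them to the new strand at each cell division. CpG-rich starts of active genes are usually unmethylated, whereas many genes reserved for the germ line are methylated in body tissues. A level between the extremes in bulk tissue means that some DNA copies carry the mark and others do not. Reduced representation bisulfite sequencing reads only the ends of fragments between enzyme sites, so a gene end is seen as short islands of CpGs with unread DNA between them.

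RefSeq promoter windows of build GRCm38.p6, from 250 bases before to 50 after the annotated start, were found for 7 of the 9 genes, not for Tescl or Cacna1h. In the windows of BC029722, Tpsg1 and Dkkl1 no CpG was read in either library. The other 4 are shown because measured CpGs lie in them. Capitals mark the CpGs with at least 5 reads, strands pooled, in both libraries, and each sequence is given on the strand of its gene. The Gm8773 window is chr5:5573754-5574053 on the plus strand, with 14 CpGs, 5 of them in capitals, 7 read to that depth in the control library alone and 2 not read. The Akr1b8 window is chr6:34353896-34354195 on the plus strand, with 10 CpGs, 9 of them in capitals. The Dnajb3 window is chr1:88205699-88205998 on the minus strand, with 19 CpGs, 7 of them in capitals and all of those at the gene end of the window. The Arl9 window is chr5:77003805-77004104 on the plus strand, with 4 CpGs, 3 of them in capitals.
Gm8773: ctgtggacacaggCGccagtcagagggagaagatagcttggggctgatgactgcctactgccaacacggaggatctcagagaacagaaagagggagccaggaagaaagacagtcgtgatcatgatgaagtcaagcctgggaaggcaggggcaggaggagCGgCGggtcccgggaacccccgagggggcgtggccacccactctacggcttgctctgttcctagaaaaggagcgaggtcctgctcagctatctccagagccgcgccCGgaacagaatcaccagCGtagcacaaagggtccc
Akr1b8: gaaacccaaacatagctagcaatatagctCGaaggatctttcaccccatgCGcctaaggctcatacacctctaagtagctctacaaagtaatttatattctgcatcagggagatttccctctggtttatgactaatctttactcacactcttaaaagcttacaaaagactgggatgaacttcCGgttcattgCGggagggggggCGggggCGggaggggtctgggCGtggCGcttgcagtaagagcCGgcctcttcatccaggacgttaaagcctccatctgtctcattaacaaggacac
Dnajb3: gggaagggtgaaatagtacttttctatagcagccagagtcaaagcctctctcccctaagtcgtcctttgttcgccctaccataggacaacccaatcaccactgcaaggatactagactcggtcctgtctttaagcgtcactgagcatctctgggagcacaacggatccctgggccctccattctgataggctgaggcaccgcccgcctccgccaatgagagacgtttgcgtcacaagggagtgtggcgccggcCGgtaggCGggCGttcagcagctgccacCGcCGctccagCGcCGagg
Arl9: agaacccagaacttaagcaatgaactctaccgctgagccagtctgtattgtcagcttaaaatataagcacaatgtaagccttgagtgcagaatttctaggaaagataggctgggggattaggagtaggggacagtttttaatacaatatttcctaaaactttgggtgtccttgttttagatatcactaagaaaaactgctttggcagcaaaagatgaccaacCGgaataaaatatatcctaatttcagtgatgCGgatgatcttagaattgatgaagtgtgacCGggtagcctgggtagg
Each of these 4 windows holds 2 copies of CCGG, the site of MspI, and the Akr1b8 window also holds 1 copy of TCGA, the site of TaqαI. Both motifs read the same on either strand. CCGG is found in 52.8% and TCGA in 22% of 32851 RefSeq promoter windows of this length.

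All 9 gene ends were called by Fisher's exact test on summed reads, as were 1.52% of all measured gene ends, and since the members were picked on this contrast nothing is read from that count. When reads were divided by how many cytosines the window held, so that a read counted about once, 2 of the 9 were called, Gm8773 and BC029722. Among protein-coding genes, the called ends comprised 59 with more and 48 with less methylation in the fasted library than in the control library. Gm8773 ranked 1, Dnajb3 4 and Dkkl1 10 by size among the higher ones, and Tescl ranked 1, BC029722 2, Akr1b8 4, Arl9 6, Tpsg1 7 and Cacna1h 8 among the lower ones. Of single cytosines in the 9 spans, 37 of 408 tested were called, 8 of them up and 29 down in the fasted library, where 0.0820% of all tested cytosines were called. With every read count halved there were 2 such calls. Of the 37 calls without halving, BC029722 held 17, and Gm8773 and Tescl 7 each. Arl9 held 2, Tpsg1 and Cacna1h had the same 2 in common, and Dkkl1 and Akr1b8 held 1 each. At Dnajb3 none of 33 tested cytosines was called. In whole liver, a change in the mix of cells and a change in the level per cell cannot be told apart.

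To describe the blocks, a run was defined as at least 3 neighbouring CpGs that all differed by at least 25 points in the same direction, strands pooled. The autosomes held 601 such runs, which took in 0.171% of the CpGs compared, and 10 of the runs lay in the 9 spans, 3 higher and 7 lower in the fasted library. A run on the autosomes had a median of 3 CpGs, a median length of 58 bp and a median absolute mean difference of 35.5 points. The members' runs had a median of 5.5 CpGs, a length of 52.5 bp and a difference of 42.9 points. The members were chosen for large differences at their ends. Nothing is therefore read from how their runs compare with the others, the ranks below included. The run at Tescl had the most CpGs of all 601, 21, and that at Gm8773 was the longest, 816 bp. The place of Tescl rests on the minimum of 10 reads. With at least 20 reads its run had 10 CpGs, fewer than the 13 at BC029722, and with at least 5 reads its longer run had 18. The length at Gm8773 rests on the gap of 500 bp allowed between CpGs. With at most 200 bp allowed, its run had 8 CpGs over 389 bp, shorter than the 409 bp of Tescl. CpGs of a run that lie within reach of the same read share their reads, so they are not independent measurements.

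**Figure D1:**
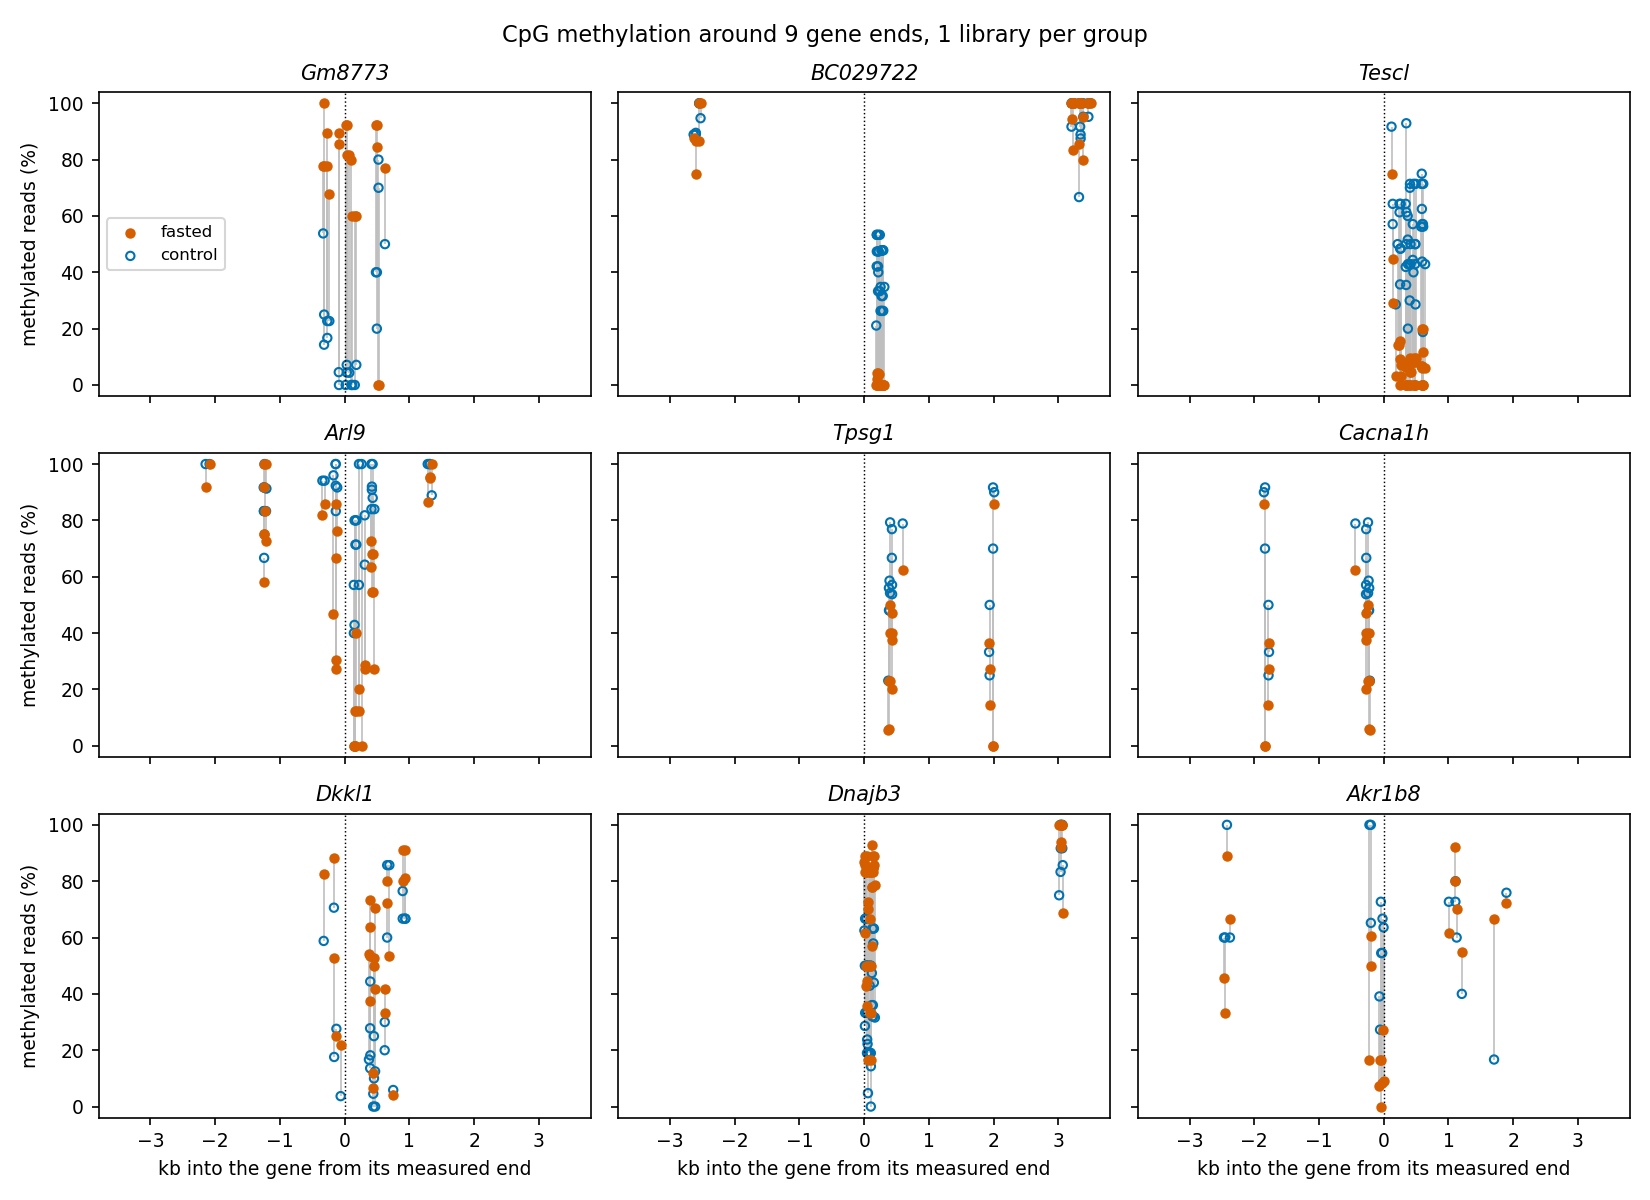
Methylated reads at each CpG cytosine that both libraries covered with 5 or more reads, within about 3.8 kb of the measured end of each gene, in percent on the vertical axis and in kb into the gene on the horizontal axis, which in short genes runs on past the far end and where 0 (dotted line) is the end of the RefSeq gene with more shared cytosines. Filled points are the fasted library, open points the control library, and a grey line joins the values of a cytosine. The large gaps between the libraries stand in short groups of cytosines, with nearby groups at BC029722 and Dnajb3 high in both libraries.

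Gm8773, a gene whose function is not described here, was highly methylated around its start in the fasted library and little methylated there in the control library. The gene end averaged 86.3% in the fasted library and 15.1% in the control library over 11 cytosines, a difference of 71.2 points. Its run, chr5:5573686-5574501, ran from -318 to 497 bp relative to the annotated start. The 10 CpGs of the run lay between 68.8 and 92.3% in the fasted library and between 0 and 40% in the control library, so that the libraries did not overlap. At the first CpG, 16 of 18 reads were methylated in the fasted library (88.9%, interval 65.3 to 98.6%), against 5 of 26 in the control library (19.2%, 6.55 to 39.4%). The largest difference was at 5574019, where 12 of 13 reads were methylated in the fasted library and 0 of 34 in the control library. The control library was not flat across the run. It was at 19.2, 20.6 and 21.4% over the first 3 CpGs, between 0 and 7.14% over the 5 CpGs around the start, and at 40 and 30% over the last 2. The fasted library was at 68.8% or more at all 10 of these CpGs. Its lowest single cytosine in the run, among those with at least 5 reads in both libraries, was at 60%.

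At the upper edge of the Gm8773 run the difference changed sign from one CpG to the next. At 5574501, the last CpG, 23 of 26 reads were methylated in the fasted library and 6 of 20 in the control library. Only 25 bp on, at 5574526, the values were 0 of 26 in the fasted library and 15 of 20 in the control library, a difference of -75 points in the other direction, and both strands showed it (-80 points on the plus strand and -70 on the minus strand). The deposited calls do not show the bases behind them, and whether the mice carried another sequence at this CpG, which would change what its 0% means, was not tested. A further CpG, at 5574625, was at 76.9% in the fasted library and 50% in the control library, higher in the fasted library again. Below the run, the nearest cytosine with enough reads, at 5573672 on the plus strand, was at 77.8% of 9 reads in the fasted library and 53.8% of 13 in the control library.

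In the middle of the Gm8773 run 1 fragment was missing from the fasted library. Between the CCGG sites at 5573922 and 5574018, 96 bp apart in the printed window, 16 member cytosines lie, and 14 of them had no read in the fasted library. The control library covered those 14 with 14 to 20 reads each, of which 2 of 237 summed reads were methylated (0.844%, interval 0.102 to 3.01%). MspI cuts CCGG whether or not the inner cytosine is methylated. How these copies stood in the fasted library could not be measured here, so the height of the run in its middle rests on the CpGs on either side.

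Dnajb3 encodes a co-chaperone of the DnaJ family that in mouse is known from the testis, and it lies within the Ugt1a cluster, inside 8 overlapping Ugt1a genes. Its end was at 73.6% in the fasted library and 42.7% in the control library over 25 cytosines, a difference of 31 points. The gene end was measured as a single stretch of 37 cytosines, from 165 to 3 bp inside the start, at 67.4% in the fasted library and 38.3% in the control library. Here 2 runs were found, of 7 CpGs at chr1:88205583-88205644 (80.1% in the fasted library and 41% in the control library) and of 3 CpGs at chr1:88205716-88205737 (75.8% and 40.4%, in the same order). At 88205583, the CpG with the largest difference, 14 of 17 reads were methylated in the fasted library and 6 of 21 in the control library.

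The 2 Dnajb3 runs were parted by single CpGs that differed less and not by a return to a common level. At 88205646, 2 bp past the first run, the levels were 25% of 12 reads in the fasted library and 11.4% of 35 in the control library, low in both. At the next CpG, 88205651, they were 75% in the fasted library and 31.4% in the control library, as far apart as within the runs. When 1 CpG of a run was allowed to miss the threshold, both runs became 1 of 14 CpGs over 155 bp with a mean difference of 38.5 points. At 88205744, 7 bp past the second run and 4 bp from the start, both libraries were high, 88.2% of 17 reads in the fasted library and 72.7% of 11 in the control library. Within the runs the control library stayed between 28.6 and 52.3% and the fasted library between 65.6 and 87.5%. Past the other end of this short gene, about 3 kb from the start, 8 cytosines were at 94.4% in the fasted library and 90.9% in the control library.

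Dkkl1, a Dickkopf-like gene known from spermatids and the acrosome, held no run at all. Its gene end averaged 50.1% in the fasted library and 24.1% in the control library over 13 cytosines, a difference of 25.9 points, but CpGs that differed strongly alternated with CpGs that did not. At 45211694, 58.6% of 29 reads were methylated in the fasted library and 5.56% of 18 in the control library. At 45211771 the levels were 59.7% of 77 reads in the fasted library and 20% of 80 in the control library. Between these, at 45211723, they were 9.38% of 32 reads in the fasted library and 3.33% of 30 in the control library, low in both. A run of 4 CpGs with a mean difference of 29.1 points appeared only when the threshold was lowered to 15 points. Elsewhere in the span the libraries matched more closely, with 25 cytosines beyond the far end of the gene at 0.792% in the fasted library and 0.717% in the control library, and 10 cytosines just inside that end at 99.3% and 96.6% in the same order.

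**Figure D2:**
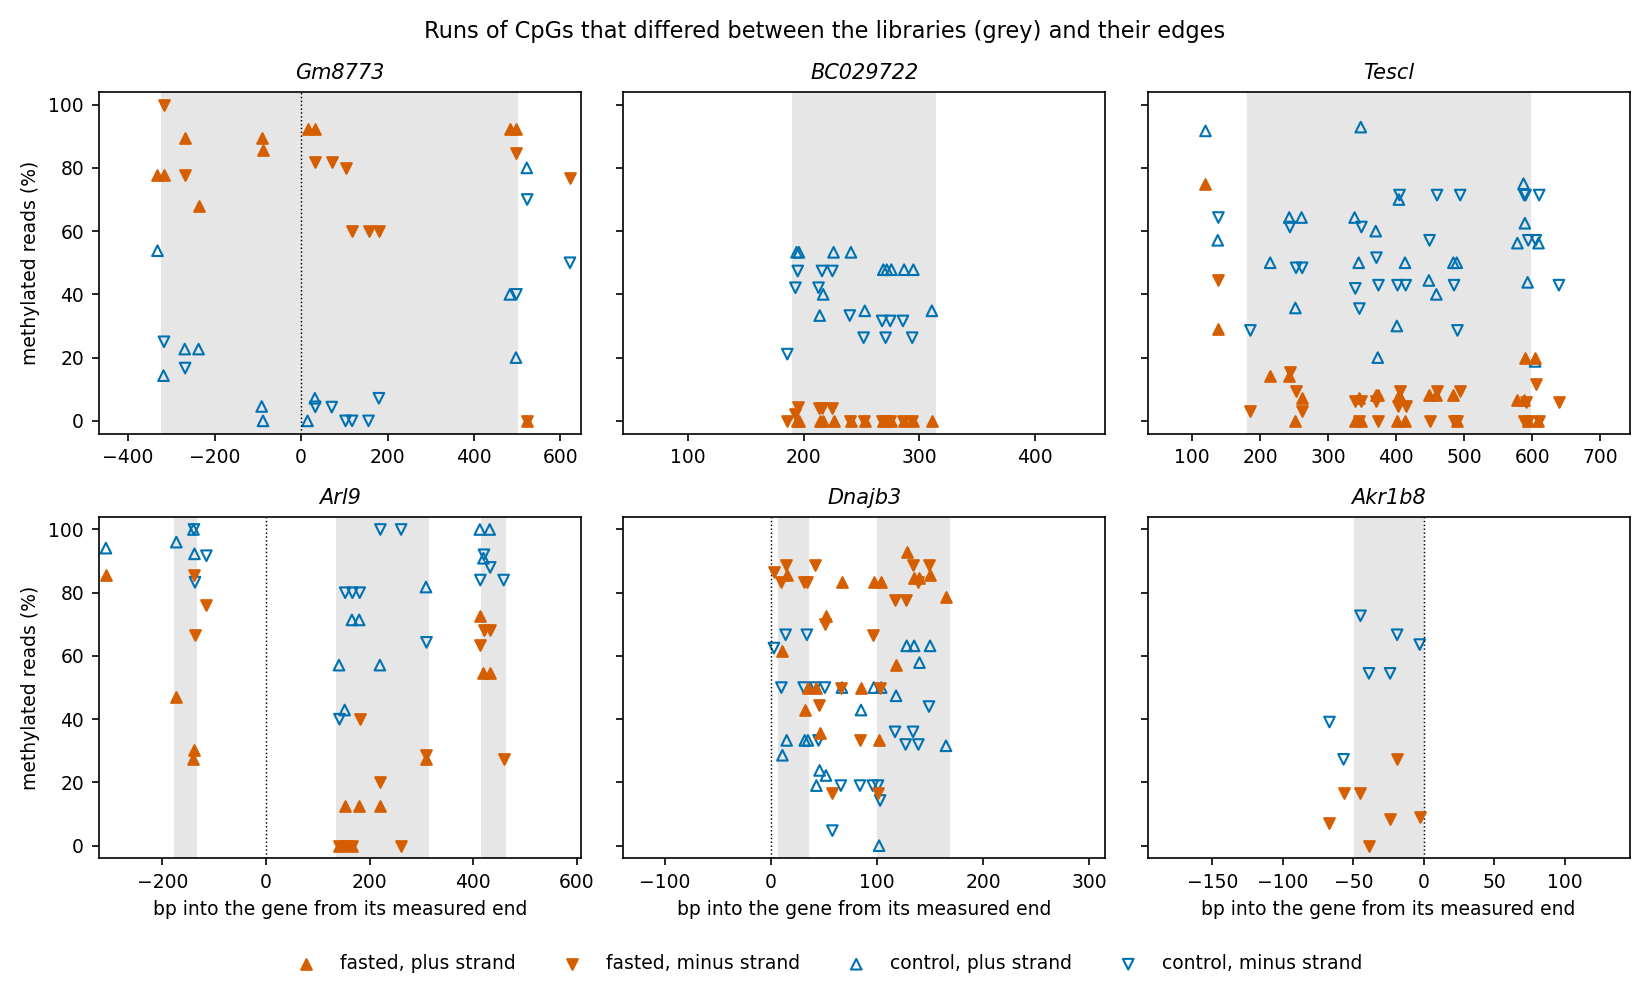
Methylated reads in percent (vertical axis) at each cytosine near the runs of 6 gene ends, against bp into the gene from its measured end (horizontal axis). Triangles pointing up are plus-strand and those pointing down minus-strand cytosines, filled for the fasted and open for the control library, and grey bands are the runs. The cytosines of BC029722 stand at or near 0 in the fasted library and between 21.1 and 53.3% in the control library on both strands.

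Among the gene ends that were lower in the fasted library, Tescl, named as a tescalcin-like gene after the calcium-binding protein tescalcin, had the largest difference. Its end was at 10.9% in the fasted library and 53.1% in the control library over 26 cytosines, a difference of -42.2 points. The run of 21 CpGs, chr7:24333265-24333673, covered 409 bp from 185 to 593 bp inside the gene. Its CpGs lay between 0 and 15.2% in the fasted library and between 28.6 and 73.9% in the control library, and 40 of 40 cytosines that both libraries covered with 5 or more reads were lower in the fasted library. A CpG too thinly read to enter the run, at 24333620, went the other way, with 2 of 6 reads methylated on the plus strand and 0 of 2 on the minus strand in the fasted library, against 0 of 4 and 0 of 6 in the control library. With CpGs of at least 5 reads taken in, it split the run into 2, the longer of 18 CpGs over 309 bp, and in both the fasted library was lower. The largest difference was at 24333667, where 1 of 32 reads was methylated in the fasted library (3.12%, interval 0.0791 to 16.2%) and 17 of 23 in the control library (73.9%, 51.6 to 89.8%).

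The lower edge of the Tescl run was a slope in both libraries. Going into the gene, the fasted library was at 76.2% at 24333200, 39.6% at 24333218 and 3.12% at 24333265. The control library was at 91.7, 61.9 and 28.6% at the same CpGs and then returned to 50% at the next one, whereas the fasted library stayed low. Past the upper edge, at 24333684, the levels were 15.6% of 64 reads in the fasted library and 30.4% of 46 in the control library. At the CpG after it, 24333689, they were 0% of 64 and 60.9% of 46 in the same order, so the run ended at the single CpG at 24333684. As at Gm8773, a sequence difference at the CpG with 0% was not tested.

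BC029722, a gene of unknown role here, overlaps Mmp24 on one side, has Eif6 on the other, and was read at 3 places in its span. Its end was at 0.707% in the fasted library and 40.4% in the control library over 26 cytosines, a difference of -39.7 points. The run, chr2:155818921-155819038, held 13 CpGs in 118 bp, 194 to 311 bp downstream of the annotated start on the minus strand. In the fasted library 0 to 2 reads per CpG were methylated, at depths of 32 to 118 reads, and the control library stood between 31 and 50%. At 155819006, the largest difference, 2 of 88 reads were methylated in the fasted library (2.27%, interval 0.276 to 7.97%) and 34 of 68 in the control library (50%, 37.6 to 62.4%). The control library was thus intermediate at every CpG of the run and at no CpG of it high. Read counts doubled between neighbouring cytosines here, with 11 of 23 plus-strand reads methylated in the control library at 155818937 and 22 of 46 at 155818945. Whether both mates of a read pair were counted was not tested, so counts and intervals here and elsewhere may rest on fewer molecules than the reads printed.

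The BC029722 run ended at the threshold on one side and at unread DNA on the other. At 155819045, 7 bp past it, the fasted library was at 0% of 25 reads and the control library at 21.1% of 19, the same direction with a difference of -21.1 points, short of 25. On the other side the nearest CpG with enough reads was 2892 bp away, fully methylated in the fasted library and at 91.7% in the control library. The 25 cytosines of the span outside the run averaged 91% in the fasted library and 92% in the control library. The difference at this gene was thus measured in 1 stretch. The 2 other stretches, where the libraries differed by 1.2 and -4.36 points, lie outside the gene, within Mmp24 and Eif6.

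Akr1b8, an aldo-keto reductase that reduces aldehydes, was lower in the fasted library directly at its start. Its end was at 18.2% in the fasted library and 55.5% in the control library over 8 cytosines, a difference of -37.2 points. The run of 5 CpGs, chr6:34354100-34354142, lies at -46 to -4 bp relative to the annotated start, in the printed window from the CCGG site at 34354077 to that at 34354141. It was read on the minus strand only. Its CpGs lay between 0 and 27.3% in the fasted library and between 54.5 and 72.7% in the control library. At 34354100 the levels were 16.7% of 24 reads in the fasted library (interval 4.74 to 37.4%) and 72.7% of 22 in the control library (49.8 to 89.3%).

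The lower edge of the Akr1b8 run lay within the same short fragment. At 34354088, 12 bp below, the levels were 16.7% of 12 reads in the fasted library and 27.3% of 11 in the control library, and at 34354078 they were 7.14% of 28 and 39.1% of 23 in the same order. The fasted library was thus low on either side of this edge. The edge rested on the single CpG at 34354088, where 3 of 11 control reads were methylated (interval 6.02 to 61%). That interval overlaps the control interval at the first CpG of the run, 49.8 to 89.3%, so a step was not established. At 34354078 the difference was -32 points, past the threshold. With 1 CpG allowed to miss the threshold the run had 6 CpGs over 65 bp. Inside the gene, 1010 bp on, the levels were 61.5% in the fasted library and 72.7% in the control library. The pseudogene Gm13858 overlaps the far part of the gene.

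Arl9, a small GTPase of the ADP-ribosylation factor-like family, had a broken pattern of 3 runs around the lower end of its RefSeq gene. The gene end was at 56.8% in the fasted library and 90.4% in the control library over 17 cytosines, a difference of -33.6 points. The runs were chr5:77002571-77002606 with 3 CpGs (42.4% in the fasted library and 95.5% in the control library), chr5:77002885-77003053 with 6 CpGs (12.4% and 67.6%, in the same order) and chr5:77003164-77003202 with 3 CpGs (51.5% and 89.3%). Going into the gene the fasted library thus passed from an intermediate to a low and back to an intermediate level, and the control library from a high to a lower and back to a high level.

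The Arl9 CpGs between the runs missed the threshold. At 77002628, between the first and second runs, the fasted library was at 76.2% of 21 reads and the control library at 91.7% of 12. This CpG was read on the minus strand only. On that strand the first run also averaged 76.2% in the fasted library and 91.7% in the control library. The end of the first run thus lay where plus-strand reads stopped, and no step was measured on the minus strand. At 77003157, between the second run and the last, the fasted library was at 66.7% of 33 reads and the control library at 88.9% of 36. At 77002910, within the second run, 0 of 13 reads were methylated in the fasted library and 9 of 12 in the control library, a difference of -75 points and the largest at this gene among CpGs with at least 10 reads. Of cytosines with fewer, 77003005 on the minus strand had 0 of 5 reads methylated in the fasted library and 5 of 5 in the control library. With 1 CpG allowed to miss the threshold the 3 runs became 1 of 12 CpGs over 632 bp with a mean difference of -50.3 points.

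The runs at Arl9 lay from -1484 to -853 bp relative to 77004055, the annotated start on which the printed window is placed. At that start, 4 cytosines were at 94.3% in the fasted library and 97.2% in the control library, high in both. The difference was thus measured at the lower end of the gene's RefSeq span and not at this annotated start. The 36 cytosines of the span outside the runs averaged 79% in the fasted library and 85.3% in the control library.

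Tpsg1 encodes a membrane-anchored tryptase of mast cells, and Cacna1h the pore subunit of a low-voltage-activated, T-type calcium channel. The RefSeq spans of these genes overlap, and the windows at their facing ends hold largely the same cytosines. The Tpsg1 end was at 27.7% in the fasted library and 56.5% in the control library, and the Cacna1h end at 30.9% and 58.5% in the same order, differences of -28.7 and -27.6 points. With windows of 2000 bp on each side the Cacna1h end differed by 1.05 points and was not called. They shared 1 run, chr17:25374011-25374042, of 3 CpGs in 32 bp, inside Tpsg1 and from -274 to -243 bp relative to the end of Cacna1h. Its 3 CpGs were at 27.8, 43.2 and 37.3% in the fasted library and at 55, 72 and 67.9% in the control library, intermediate in both libraries. From the annotated starts of Tpsg1 the run is 3458 to 4769 bp downstream, so it lies at the far end of that gene.

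Toward one side of the Tpsg1 and Cacna1h run both libraries had lower levels. Past the run, at 25374051, 25374059 and 25374069, the fasted library was at 32, 15.1 and 5.56% and the control library at 53.7, 51.9 and 23.1%. The CpG at 25374051 missed the threshold with a difference of -21.7 points and so ended the run. With 1 miss allowed the run had 4 CpGs over 49 bp. A single CpG farther into Tpsg1, at 25372451, was at 0% of 18 reads in the fasted library and 81.8% of 22 in the control library, while its neighbour at 25372504 was at 22.2% and 36.4% in the same order. A sequence difference at 25372451 was not tested.

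The rest of Cacna1h is the largest body of data among the members and differed little on average. Over the 306 cytosines that both libraries covered with 5 or more reads, the span averaged 30.7% in the fasted library and 31.8% in the control library, with 95 cytosines higher, 100 lower and 111 equal in the fasted library. Outside the run, 300 cytosines differed by -0.574 points on average. Of the 306, 185 lay in 1 stretch toward the other end of the gene, chr17:25432514-25434502. That stretch was at 4.77% in the fasted library and 3.49% in the control library. A drop like that at the measured end could not have been seen there, so these averages cannot show whether the gene followed its end. Stretches at high levels inside the gene can. The largest, 31 cytosines at chr17:25385476-25386086, was at 81.6% in the fasted library and 81.3% in the control library. The next, 15 cytosines at chr17:25382968-25383463, was at 70.8% and 77.9% in the same order. Neither showed a drop as large as that at the measured end.

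**Figure D3:**
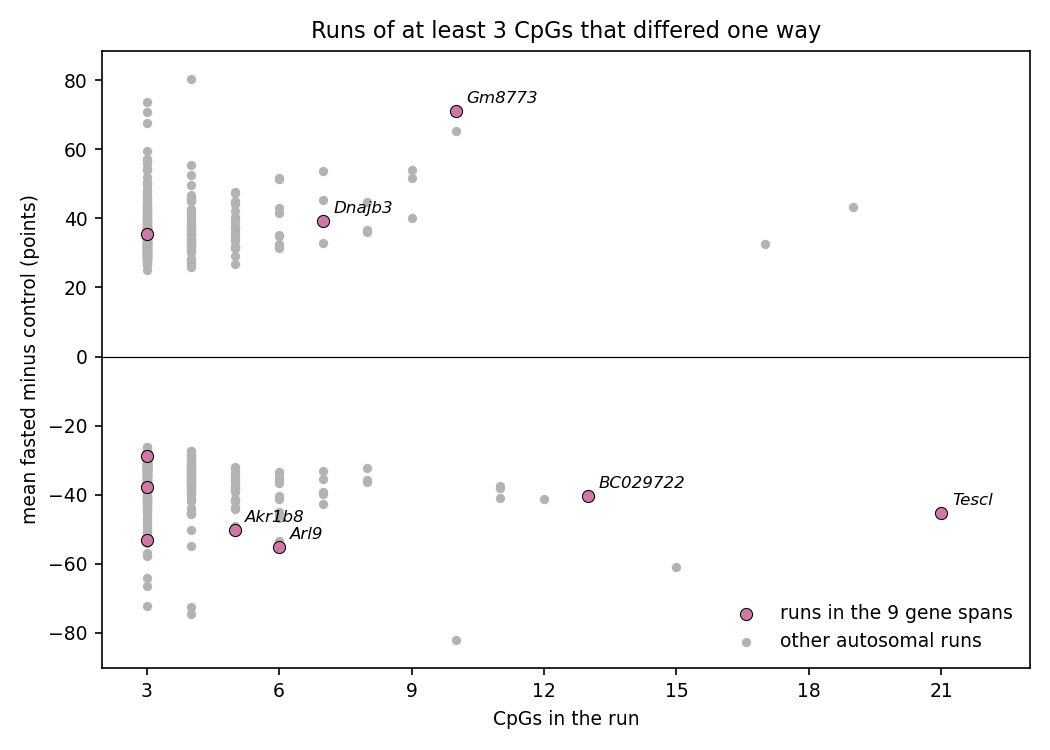
Each of the 601 autosomal runs by the number of its CpGs (horizontal axis) and the mean difference, fasted minus control, in points (vertical axis). Runs in the 9 gene spans are the larger outlined points, named where they hold at least 5 CpGs, and other runs are grey. Tescl stands at 21 CpGs and Gm8773 at 71.1 points, while runs of 3 CpGs are the most numerous.

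Set side by side, the runs differed in kind. At Tescl, BC029722, Akr1b8, the second Arl9 run and the first Dnajb3 run, the mean was between 20 and 80% in the control library and beyond those bounds in the fasted library. At the first and last Arl9 runs the control library was above 80% and the fasted library intermediate, at the Tpsg1 and Cacna1h run and the second Dnajb3 run both were intermediate, and at Gm8773 they stood beyond the bounds on opposite sides. The 2 Dnajb3 runs are parted here only by the bound of 80%. Their means were 80.1 and 75.8% in the fasted library and 41 and 40.4% in the control library. Of the 136 cytosines in runs, 77 were below 20%, 34 between 20 and 80% and 25 at 80% or above in the fasted library, against 13, 106 and 17 in the control library. Tescl with 39 and BC029722 with 25 made up most of those below 20% in the fasted library. A change across the whole range, from below 20% in one library to 80% or above in the other, was seen at 11 of these cytosines, 7 at Gm8773, 3 at Arl9 and 1 at Tescl. The 488 cytosines outside runs split much alike in both libraries, with 226, 107 and 155 in the fasted library and 233, 97 and 158 in the control library, and 3 changed across the whole range. Of the 488, 300 lay at Cacna1h, and the like split does not mean that each gene matched outside its runs. Outside runs the mean difference was -34.2 points at Tescl, -24.8 at Gm8773, -21.6 at Tpsg1, 17.6 at Dnajb3 and -10.1 at Akr1b8. It was 8.3 points at Dkkl1, -6.24 at Arl9, -1.02 at BC029722 and -0.574 at Cacna1h. Since the runs were picked by their difference, the counts describe the runs and test nothing.

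The strands of the members could be compared because each CpG is read separately on its plus and minus strand. The members comprised 359 plus-strand and 396 minus-strand cytosines. The difference between the libraries had the same direction on both strands at 56 of 56 CpGs in runs with at least 5 reads on each strand, and at 56 of 154 CpGs outside runs, where many values were equal or close to 0. Over all 210 CpGs the differences on the strands correlated with a Pearson r of 0.83, a description, since CpGs of 1 fragment share reads and the runs were picked on both strands together. The sizes were less alike than the directions, with a median gap between the strands of 16.2 points in runs and 6.41 points outside. At BC029722, for example, the plus strand differed by -45.8 points and the minus strand by -34.6 points.

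**Figure D4:**
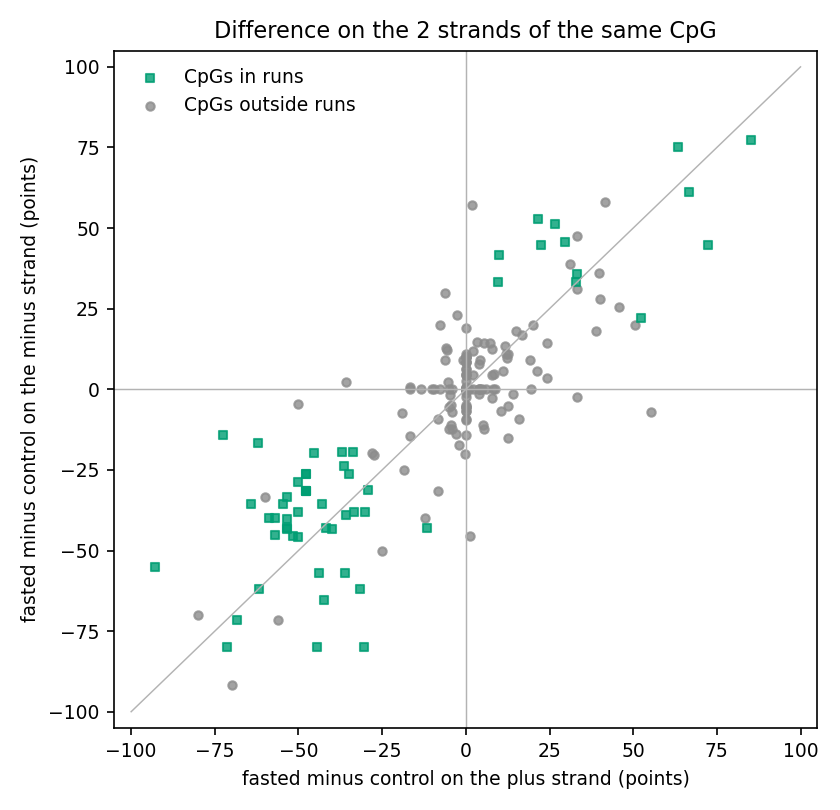
The difference between the libraries, fasted minus control in points, on the plus strand (horizontal axis) and the minus strand (vertical axis) of each CpG in the 9 spans with at least 5 reads on each strand in both libraries. Squares are the 56 CpGs in runs and circles the 154 outside runs, with the diagonal marking equal differences. All squares lie in the quadrants where both strands moved the same way.

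Within a library, the strands of a CpG can be tested against each other, a comparison other than the one that chose the members. It uses the same reads, however, and strands can differ by 25 points only where the level is away from 0 and 100%. The member shares are therefore not independent of how the members were chosen. In the fasted library 1 of 161 member CpGs with at least 10 reads on each strand was called by Fisher's exact test, against 0.0649% of all CpGs, and in the control library 0 of 140, against 0.0699% of all CpGs. The called CpG was at Arl9, at 77002604 in the first run, where the plus strand was at 27.3% of 66 reads and the minus strand at 85.7% of 21 (exact test, adjusted p = 0.00932). In the control library both strands there were at 100%, of 52 and 12 reads. The call held with at least 20 reads on each strand (exact test, adjusted p = 0.00565) and was lost with every read count halved (exact test, adjusted p = 1). The first Arl9 run as a whole differed by -61.3 points on the plus strand and -15.5 points on the minus strand, so the size of its difference came mainly from the plus strand.

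Part of the members' cytosines were read in 1 library only. Of the 755, 57 had no read in the other library, 32 of them unread in the fasted and 25 in the control library. This is 7.55%, against 2.89% of all cytosines compared this way. Besides the Gm8773 fragment, 10 cytosines near Tpsg1 and Cacna1h, at 80%, and 5 at Tescl, at 94.8%, were read in the control library alone. In the fasted library alone, 8 cytosines at Dkkl1 stood at 99.2%, 6 and 5 at Cacna1h at 97.2 and 93.3%, and 4 at Akr1b8 at 42.3%. At the read minimum itself, of 32 cytosines whose deeper library had 5 reads, the 29 read in both libraries averaged 66.5% in the fasted library and 80.3% in the control library, and of the 31 just outside, with 4 reads, the 25 read in both averaged 42% and 47% in the same order.

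Ends of related genes were read beside the members, against the share of 1.52% called over all gene ends. Each family was listed because a member was called, so its count says nothing about the family. Of the measured Akr1b ends, 1 of 3 was called, Akr1b8 itself, while Akr1b3 was at 3.33% in the fasted library and 0.33% in the control library. Of 5 voltage-gated calcium channel ends of the Cacna1 family, Cacna1h was the called one. Dkkl1 was the called one of 4 Dickkopf ends, Dnajb3 of 12 Dnajb ends, Arl9 of 15 Arl ends and Tescl of 3 tescalcin-related ends. Of the tryptases 2 of 2 measured ends were called, Tpsg1 and Tpsab1, a mast cell tryptase, which was at 30.8% in the fasted library and 63.4% in the control library. The list held 4 tryptases, and the ends of Tpsb2 and Prss34 were not measured. Tpsb2 lies partly in the Tpsg1 span, and 3 cytosines read inside it averaged 94.9% in the fasted library and 86.7% in the control library. Of these 2 were higher and 1 lower in the fasted library.

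Marker genes of cell types were read in the same way, again against 1.52% called over all gene ends. Hepatocyte marker ends had 4 of 12 measured and none called, at 9.06 to 29.4% in the fasted library and 13.1 to 33% in the control library. Of blood cell markers 4 of 8 were measured and 1 was called, Cd37, a leukocyte surface protein, at 27.3% in the fasted library and 53.2% in the control library. Itgal, a leukocyte integrin, differed the other way without a call, at 82.8% and 69.9% in the same order. Cd79a, a B cell receptor component, and Coro1a, a leukocyte actin regulator, differed by 0.459 and 0.808 points, and the median of the list was 0.634 points. Of mast cell markers 2 of 6 were measured, Tpsab1 as above and Kit, the stem cell factor receptor, at 3.4% and 1.91% in the same order. Of 8 germ cell markers 7 were measured, with a range of 50.1 to 92.3% in the fasted library and 24.1 to 92.6% in the control library. Dkkl1 and Dnajb3, which are also members here, had calls upward, and Ddx4, a germ cell RNA helicase, had a call downward, at 68.6% in the fasted library and 79.3% in the control library. The part of cell mixture in the differences at the 9 gene ends was not tested.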

How the data were processed

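Per the labels' protocols, liver DNA was cut with TaqαI and MspI, given methylated adapters and sized on a gel, and after bisulfite treatment and PCR an Illumina HiSeq read it. The build mm10 and the tools Bismark 0.14.3 and bcl2fastq 1.8.4 are named in the submitters' processing notes. For trimming, duplicates and filters, settings were not given in the sources used here.

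Both deposited files hold a line per CpG cytosine and strand, with a text field of methylated and total reads and a score. The deposited score is 1000 times the methylated share, and it differed from the value the reads give by at most 0.5. Levels here come from those reads, with no normalization.

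The fasted library was set against the control library, with groups taken from the titles. The fasted library listed 4110421 cytosines with 51276705 reads, and the control library listed 4111027 with 49253627, a read counting at each cytosine it covers. Whether overlapping mates of a pair were both counted is not given in the sources used here. On 19 autosomes, cytosines that both libraries covered with 10 or more reads were compared. Fisher's exact test, two-sided, was adjusted by Benjamini-Hochberg over all of them. A call needed an adjusted p under 0.05 and 25 points. Gene ends ran from 1000 bp outside to 500 bp inside the end of a RefSeq gene with more shared cytosines. They needed 5 cytosines, were tested on summed reads, and were called at 10 points. Runs were neighbouring CpGs with strands pooled and at least 10 reads in both libraries, at most 500 bp apart, of which at least 3 in a row differed by at least 25 points one way. Intervals are exact Clopper-Pearson intervals at 95%. Without molecular identifiers, PCR reads may be copies of the same molecule, and both p-values and intervals therefore cover counting error only.

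The members and the gene lists were chosen with earlier results of these data known, and the comparison of strands within a library was added after seeing the data. Named are the 9 genes, the edge and largest CpGs of each run, overlapping genes and called members of the family lists. Other CpGs named in the text were chosen after their values were seen. Alternatives were other read minimums, thresholds, windows and gaps, pooled strands, halved read counts, and reads divided by the number of cytosines. Scripts ran in Python 3.11.15 with pandas 2.3.3, NumPy 2.4.6, SciPy 1.17.1 and Numba 0.67.0, and the tests were checked on data with known answers.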

Additional observations from a re-analysis of the deposited data

How the results depend on the processing

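No paired analysis was possible because each group holds 1 library. For the same reason no library could be left out, and each value rests on the depth of single libraries. With 1315 cytosines called in the comparison as described, 778 were called with at least 20 reads, 2389 with strands pooled and 92 with every read count halved. In the 9 gene spans 37 cytosines were called, against 21 with a difference of at least 50 points and 2 with halved counts. Of gene ends, 264 were called, against 87 with at least 20 reads, 66 with halved counts and 4 when reads were divided by how many cytosines the window held. All 9 gene ends were called with at least 5 reads and with halved counts. With at least 20 reads 8 were called, Dnajb3 having too few cytosines. With windows of 2000 bp on each side 8 were called, and the difference at Cacna1h reversed to 1.05 points. With divided reads 2 were called, Gm8773 and BC029722. The 9 spans held 10 runs, against 6 when at least 40 points were asked and 6 when at least 5 CpGs were. Over the autosomes there were 601 runs, against 1362 with at least 5 reads, 184 with at least 20 reads, 3390 at 15 points, 73 at 40 points and 94 with at least 5 CpGs. The span of Dnajb3 differed by 2.76 points over the 4 cytosines that both libraries covered with 20 or more reads, against 24.5 points. Of the strand comparisons, 35 CpGs were called in the fasted library with halved counts and 178 with at least 20 reads on each strand, and 51 and 221 in the control library. The cause of these changes was not tested, beyond the smaller numbers of reads, cytosines or CpGs that the settings leave.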
